A study of Mus musculus with 20 samples.

Results

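Described here are 10 mouse genes that encode alcohol dehydrogenases (Adh1, Adh4, Adh5, Adh6a and Adh7) and aldehyde dehydrogenases (Aldh1a1, Aldh1a7, Aldh1b1, Aldh2 and Aldh3a2). They were taken as a named list from the 46603 identifiers in the count files, and all 10 passed the filter on low counts that left 14661 genes for testing. Adh6a was put on the list because it is higher in the knockout liver. Its level in knockout against wild type is therefore a description, with no test, and 9 members are counted in that comparison. Another 18 genes with an Adh or Aldh symbol are not members and are given as a separate list, and a pseudogene, Adh6-ps1, is described with the Adh cluster.

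The study sequenced poly(A) RNA from whole liver of male mice aged 2 months. The 5 wild-type mice (WT) were C57BL/6J animals bought from a vendor. The 5 EedHepKO mice (KO), also labelled C57BL6/J, carried Alb:Cre, in which the albumin promoter drives Cre recombinase, and loxP-flanked exons of Eed, so that functional EED is lost in hepatocytes. Each mouse gave lobes 1, 2 and 3, removed at a partial hepatectomy (PHx, surgical removal of part of the liver) and used as baseline, and lobes 4, 5 and 6, collected at 30 h (1 mouse per genotype), 40 h (2 per genotype) or 48 h (2 per genotype) after PHx. There were thus 4 groups of 5 libraries. Genotype cannot be told apart from colony of origin, and PHx cannot be told apart from lobe.

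EED is a core subunit of polycomb repressive complex 2, which places a repressive methyl mark on histone tails. Alcohol dehydrogenases use NAD+ to oxidise alcohols such as ethanol and retinol to aldehydes, and aldehyde dehydrogenases oxidise the aldehydes further to acids. The liver is the main site of ethanol oxidation: cytosolic ADH makes acetaldehyde, and mitochondrial ALDH2 turns it into acetate. Several members also act on vitamin A, since retinol is oxidised to retinaldehyde by alcohol and retinol dehydrogenases and then to retinoic acid by ALDH1A enzymes.

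All 5 Adh members lie on the plus strand of mouse chromosome 3 in a cluster of 237.7 kb (chr3:138217760-138455499, GRCm38), in the order Adh7, Adh1, Adh6a, Adh4 and Adh5. Aldh1a1 and Aldh1a7 are neighbours on chromosome 19. Promoter sequences came from RefSeq (GRCm38.p6), which held 11 promoter windows for 9 of the 10 members. Aldh2 was not among them. The next lines give the 250 bases before the start of Adh6a, the member seen only in KO livers, and the 150 bases before the starts of Adh1 and Adh4, the members next to it on either side, which had the most similar profiles of any 2 members. Capitals mark TATAAA and TGACNNNGC (N is any base), where present.
Adh6a (chr3:138313036-138313285, plus strand): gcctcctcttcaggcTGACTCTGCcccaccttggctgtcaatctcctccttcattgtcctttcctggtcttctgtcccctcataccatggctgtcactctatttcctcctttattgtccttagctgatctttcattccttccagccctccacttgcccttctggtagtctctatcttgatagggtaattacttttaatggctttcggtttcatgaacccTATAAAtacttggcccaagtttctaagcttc
Adh1 (chr3:138277435-138277584, plus strand): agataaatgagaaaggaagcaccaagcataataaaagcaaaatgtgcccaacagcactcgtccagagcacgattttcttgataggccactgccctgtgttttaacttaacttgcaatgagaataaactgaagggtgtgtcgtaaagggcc
Adh4 (chr3:138415347-138415496, plus strand): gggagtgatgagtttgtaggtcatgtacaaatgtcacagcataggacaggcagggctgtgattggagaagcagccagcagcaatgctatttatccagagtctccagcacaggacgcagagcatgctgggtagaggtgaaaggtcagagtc

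The Adh6a promoter held TATAAA with its first base 31 bases before the start, and TGACTCTGC 235 bases before it. TATAAA stood in 4 of the 11 member windows of 300 bases (Adh5, Adh6a, Adh7 and Aldh1a7, counted on both strands) and in 13.6% of the 32851 promoters in the table. TGACNNNGC stood in 1 member window and in 12.4% of promoters. The motif TTCNNNGAA stood in 1 member window, that of Adh6a, 14 bases after the start, and in 8.30% of promoters. Most member promoters were poor in CpG: 7 of 11 windows held 3 or fewer CpG dinucleotides, against 31.4% of all promoters. Adh6a had 2 and Adh4 had 1. The 4 windows above 3 were those of Adh1 with 6, Aldh1b1 with 7, Aldh3a2 with 21 and the second start of Adh5 with 26.

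The pair Aldh1a1 and Aldh1a7 is shown because the genes have much the same sequence while Aldh1a1 passed the tests below more often than Aldh1a7. Their coding sequences were 91.6% identical, the highest of any pair of members. The 150 bases before the second RefSeq start of Aldh1a1 and the start of Aldh1a7 were 76.4% identical in a global alignment, and the capitals mark the longest run of identical bases, 65 bases that begin 94 bases before each start.
Aldh1a1 (chr19:20601818-20601967, plus strand): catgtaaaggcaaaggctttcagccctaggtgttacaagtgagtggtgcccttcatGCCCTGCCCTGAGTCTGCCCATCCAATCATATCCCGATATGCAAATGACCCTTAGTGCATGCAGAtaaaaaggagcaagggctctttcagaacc
Aldh1a7 (chr19:20727557-20727706, minus strand): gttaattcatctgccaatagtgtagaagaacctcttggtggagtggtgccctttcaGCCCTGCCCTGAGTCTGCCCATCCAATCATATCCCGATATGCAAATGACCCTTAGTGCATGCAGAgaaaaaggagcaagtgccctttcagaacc

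Which start was used in these livers is not given by counts per gene. Only uniquely mapped reads were counted. Of the 100-base windows of the Aldh1a1 and Aldh1a7 transcripts, 0.044% and 0.051% were also found in the other of the 2. Between the Adh members, coding identity was lower, for example 62.5% between Adh1 and Adh6a and 68.8% between Adh1 and Adh7.

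Total counts ranged from 21634890 to 30461351 per library. Levels are given as CPM, counts per 1000000 of the TMM-scaled library total, as mean ± SD of 5 libraries. Eed itself was 16.8 ± 1.09 CPM in WT and 5.64 ± 1.44 CPM in KO livers at baseline, and 18.4 ± 3.98 and 4.62 ± 1.13 CPM after PHx. The 10 hepatocyte markers were all detected in every group. Their summed level ran from 138565 to 158618 CPM in WT and from 82357 to 112171 CPM in KO livers at baseline, and from 83369 to 128054 and from 43802 to 101253 CPM after PHx. Markers of 3 other liver cell types were higher in KO at baseline: summed stellate cell markers ran from 455 to 484 against 179 to 294 CPM in WT, macrophage markers from 381 to 479 against 158 to 276 CPM, and cholangiocyte markers from 86.5 to 401 against 34.2 to 80.7 CPM. Endothelial markers (301 to 384 against 324 to 360 CPM) and lymphocyte markers (2.96 to 6.04 against 1.90 to 4.85 CPM) overlapped. After PHx, stellate cell markers ran from 303 to 526 CPM in KO against 158 to 261 CPM in WT, and the other 4 types overlapped between the genotypes, with cholangiocyte medians of 370 and 97.9 CPM. In bulk liver, fewer cells of a type and less RNA per cell cannot be told apart, and the part of cell makeup in the results below was not tested.

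The WT library of mouse 1 at baseline stood apart from the other 4 of its group: counts differed by a chi-square per degree of freedom of 304 to 330 against them, where the other 4 differed by 25.1 to 37.7 among themselves, and 11.6% of its counts were of 1 gene, Gm42418, against 0.342% to 0.621% in the others. Without it, 1 of 9 members was called at baseline (Aldh1b1: log2 2.03, adjusted p = 0.0430, edgeR), 4 after PHx, 1 in the WT response (Adh7) and 4 in the KO response. Of all 15002 genes tested in that fit, 1922 were called at baseline, 3543 after PHx, 2300 in the WT response and 4169 in the KO response. The livers taken after PHx differed widely within a group. The summed level of 8 cycling genes was 288, 1.52, 48.3, 1.38 and 971 CPM in WT mice 1 to 5, so that mice 2 (40 h) and 4 (48 h) lay at or below the WT baseline range of 1.79 to 4.23 CPM. In KO it was 10.8, 32.4, 624, 88.6 and 11.2 CPM in mice 7, 8, 10, 11 and 12 after PHx, against 115, 74.0, 27.6, 42.1 and 19 CPM at baseline. KO mice 7 (48 h) and 12 (30 h) thus lay below the KO baseline range. WT mice 2 and 4 also stood apart in the members, with the lowest Adh1, Adh4, Aldh1a1, Aldh1a7, Aldh1b1 and Aldh3a2 and the highest Adh7 of their group. Much the same held in KO after PHx for mice 7 and 8, the livers taken at 48 h. They had the lowest Adh1, Adh4, Aldh1a1, Aldh1a7 and Aldh1b1 of their group, but not the lowest Aldh3a2. Their Adh7 was the highest of the group, though only at 3.54 and 3.93 CPM. Results of the members that rest on these 2 livers are given with and without them, an alternative chosen after seeing the data. No KO liver was left out in it. For members that were low in these 2 livers, this alternative therefore raises the level after PHx in WT alone. Results of other named genes are given with all livers only.

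In WT liver at baseline the members spanned over 3 orders of magnitude per kb of exon. Adh1 stood highest at 1048 ± 84.7 CPM per kb, followed by Aldh2 at 418 ± 31.6, Aldh1a1 at 280 ± 24.3 and Aldh1a7 at 148 ± 23.2 CPM per kb. Adh4 (100.3 ± 16.2 CPM per kb) and Adh5 (83.3 ± 9.84 CPM per kb) came next and overlapped. Aldh3a2 followed at 59.6 ± 5.36, Aldh1b1 at 20.6 ± 2.37 and Adh7 at 0.628 ± 0.249 CPM per kb, and Adh6a had no counts. Apart from Adh4 and Adh5, no 2 neighbours in this order overlapped between libraries. Lengths bear on this order: per kb of the longest transcript, Aldh1a1 (586) stood above Aldh2 (553) and Adh5 (121) above Adh4 (111 CPM per kb). In KO liver at baseline the ends of the order were much the same, with Adh1 at 868 ± 137 CPM per kb and Adh7 last at 0.387 ± 0.0343. Aldh1b1 moved from the eighth to the sixth place at 80.2 ± 16.9 CPM per kb, above Adh5 at 54.0 ± 6.37. Aldh1a7 and Aldh1a1 overlapped there, at 145 ± 20.6 and 138 ± 30.0 CPM per kb. Per kb of the longest transcript, Aldh1a1 was 288 against 145 CPM per kb for Aldh1a7, and Aldh1b1 and Adh5 were 80.2 and 78.4 CPM per kb. After PHx, 7 of 9 neighbours in the order overlapped in WT and 8 of 9 in KO.

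**Figure D1:**
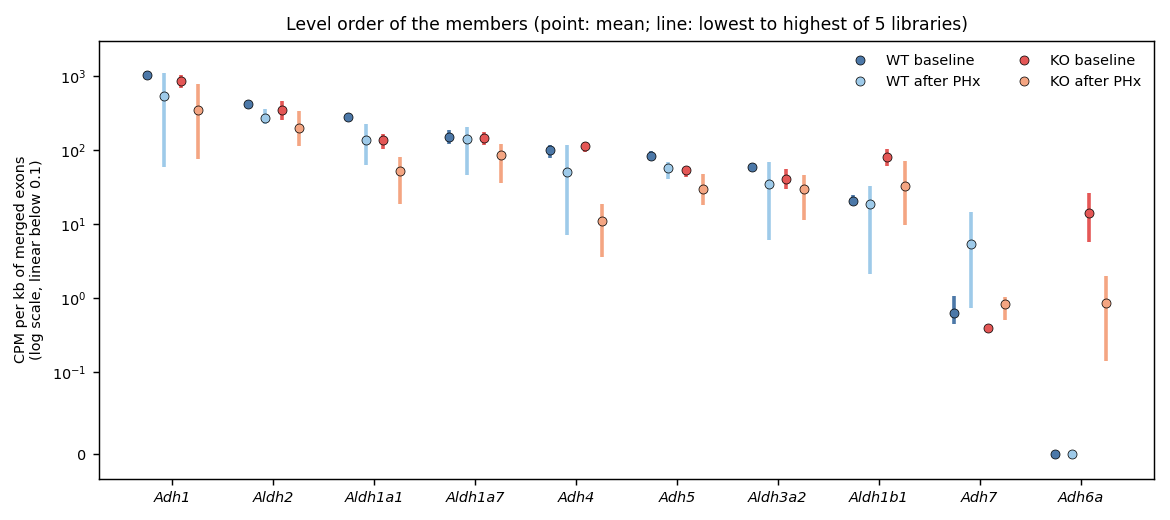
CPM per kb of merged exons of each member (log axis, linear below 0.1) in the 4 groups, ordered by the level in WT at baseline, with the mean as a point and the lowest to highest of 5 libraries as a line. Adh1 is highest in WT at baseline (1048 CPM per kb), Aldh1b1 is higher in KO than in WT at baseline (80.2 against 20.6 CPM per kb), and Adh6a is at 0 in both WT groups.

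At baseline, 2 of 9 members differed between KO and WT livers, a share close to that of all genes tested. Aldh1b1, which encodes a mitochondrial aldehyde dehydrogenase, was higher in KO, Aldh1a1, which encodes the cytosolic enzyme that makes retinoic acid from retinaldehyde, was lower, and the major ethanol-oxidising genes Adh1 and Aldh2 did not pass the test. By edgeR's quasi-likelihood test (adjusted p under 0.05 over all genes tested), 1 of 9 members rose and 1 fell, where 16% of all genes tested passed (11.1% higher and 4.89% lower). Of the genes called, 69.5% were higher, and 96.9% with library size alone in place of TMM. The median log2 fold change of the 9 members was -0.27, against -0.03 for all genes.

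Aldh1b1 measured 56.5, 46.8, 46.8, 42.1 and 44.6 CPM in the 5 WT livers and 156, 140, 198, 187 and 240 CPM in the 5 KO livers at baseline. Every KO liver lay above every WT liver. Its log2 fold change was 1.96 ± 0.57 (SE; adjusted p = 0.0247, edgeR, n = 5), a mean level 3.89 times higher. The call was lost by a small margin when WT mouse 2, 3, 4 or 5 or KO mouse 12 was left out (adjusted p 0.0506 to 0.0596).

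Aldh1a1 measured 1308, 1508, 1493, 1366 and 1228 CPM in WT and 502, 784, 538, 823 and 749 CPM in KO at baseline, again with no overlap. The log2 fold change was -1.02 ± 0.35 (SE; adjusted p = 0.0494, edgeR, n = 5). This call stood at the threshold: it was lost when any 1 of the 10 baseline livers was left out (adjusted p 0.0630 to 0.171), without the filter (0.11) and with library size alone in place of TMM (0.222). It was also lost without WT mouse 3, 4 or 5 or KO mouse 8 or 11 after PHx, which share the estimate of the spread (0.0578 to 0.0814), and held with both WT livers that stood apart left out (0.0415).

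Its paralogue Aldh1a7 measured 290, 380, 313, 296 and 248 CPM in WT and 302, 359, 275, 312 and 245 CPM in KO at baseline. The ranges overlapped almost fully, and the log2 fold change was -0.03 ± 0.35 (adjusted p = 0.963, edgeR). Whether Aldh1a1 and Aldh1a7 differ from each other in their change was not tested.

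Adh5, which encodes the glutathione-dependent formaldehyde dehydrogenase, and Adh7, which encodes a retinol-active enzyme best known from the stomach, were lower in every KO than in every WT liver but were not called. Adh5 ran from 410 to 527 CPM in WT and from 237 to 322 CPM in KO, with a log2 fold change of -0.63 ± 0.22 (adjusted p = 0.0606, edgeR), and passed without the KO liver taken at 30 h after PHx, which shares the estimate of the spread (adjusted p = 0.0265). Adh7 was low, with 28 to 88 counts per library, from 1.70 to 4.04 CPM in WT and from 1.31 to 1.65 CPM in KO, with a log2 fold change of -0.70 ± 0.61 (adjusted p = 0.473). In all, 4 of 9 members did not overlap between the groups, 1 higher and 3 lower, where 27.9% of all genes tested did not (15.6% higher and 12.2% lower). Fitted on the 10 baseline livers alone, 4 of 9 members were called, where 39.5% of all genes tested were, and the 2 added were Adh5 (adjusted p = 0.00123) and Aldh3a2 (adjusted p = 0.0184), the latter encoding the fatty aldehyde dehydrogenase.

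Adh1, the main hepatic alcohol dehydrogenase gene, stood at 2340 ± 189 CPM in WT livers and 1938 ± 306 CPM in KO livers, with a log2 difference of -0.27 ± 0.62 (SE). Aldh2 was 2140 ± 162 and 1781 ± 416 CPM, a log2 difference of -0.27 ± 0.26. Adh4, whose product oxidises larger alcohols and retinol, was 145 ± 23.5 and 164 ± 23 CPM, a log2 difference of 0.18 ± 0.53. Adjusted p ran from 0.521 to 0.857 for these 3 genes (edgeR), and the groups overlapped for each. The sign for Adh1 and Aldh2 turned with library size alone, to 0.20 for both, a scaling that moves the median of all genes at baseline from -0.03 to 0.45.

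**Figure D2:**
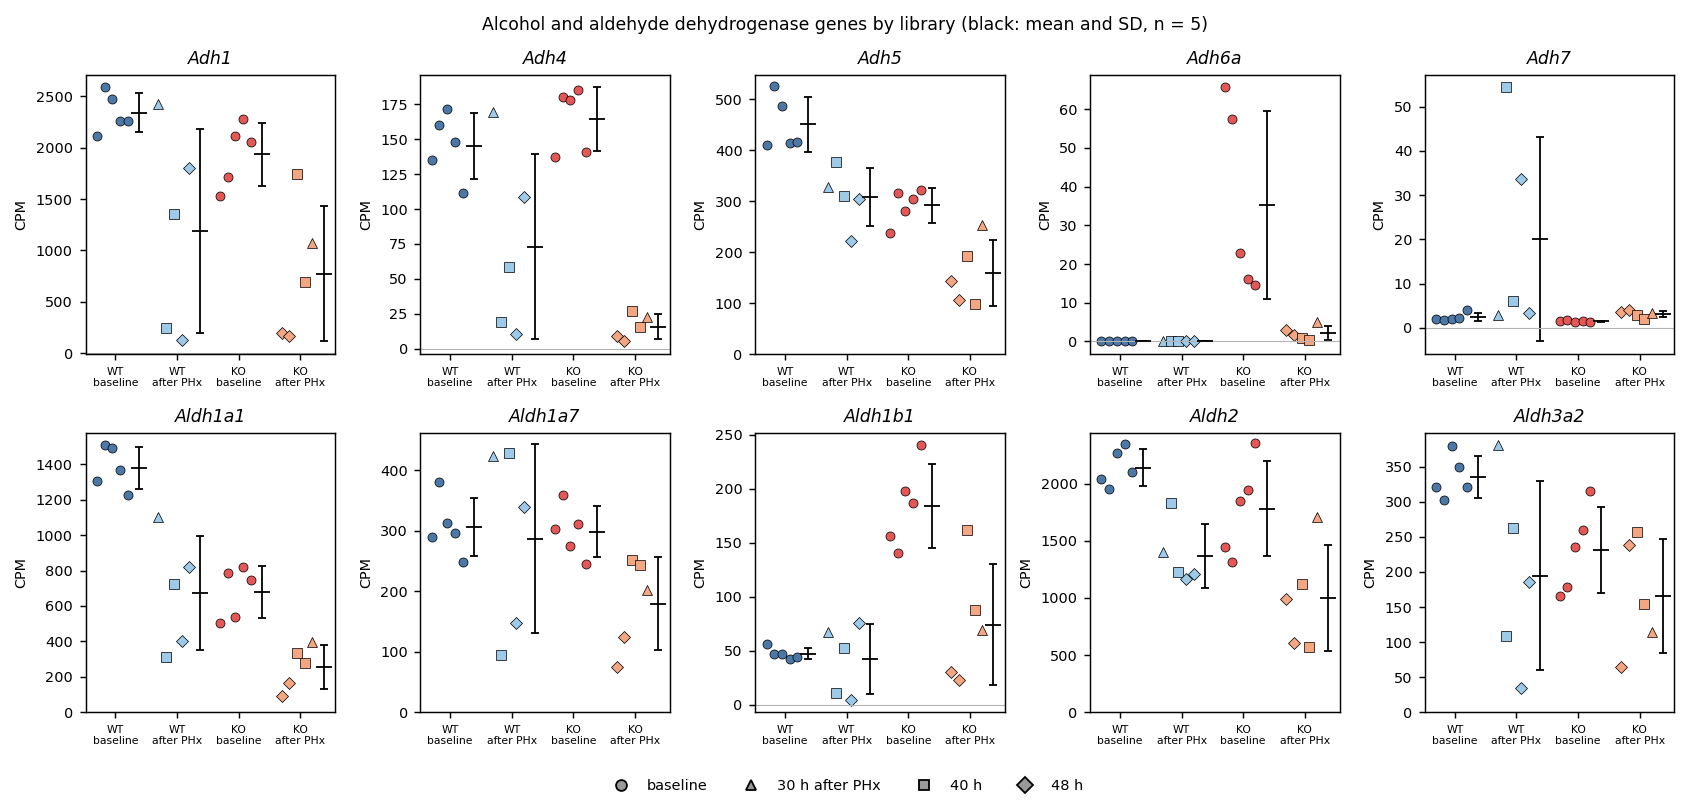
CPM of each member in the 20 libraries (linear axes from 0), by genotype and stage, with the mean and SD of each group of 5 in black and the time after PHx shown by the marker. Aldh1b1 and Adh6a sit higher and Aldh1a1 lower in the 5 KO than in the 5 WT livers at baseline, and 2 WT livers after PHx (40 h and 48 h) carry most of the Adh7 signal, at 54.4 and 33.6 CPM.

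Adh6a, whose gene encodes a class V type alcohol dehydrogenase, had 0 counts in all 10 WT libraries, at baseline and after PHx. In KO livers at baseline it measured 65.7, 57.4, 22.7, 16 and 14.5 CPM in mice 7, 8, 10, 11 and 12, from 4692 counts in all. Against 3 counts over the 5 WT libraries, the upper limit that a count of 0 allows for counting error, the pooled level was at least 1201-fold higher. After PHx it measured 3.00, 1.58, 0.76, 0.36 and 5.07 CPM in the same mice, at least 83.0-fold higher than in WT, from 312 counts. These values describe the gene as it was chosen and have no test.

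Within KO, Adh6a lay lower after PHx in 5 of 5 mice, at 2.25% to 34.9% of the same mouse's baseline. The fitted log2 difference was -4.05 ± 0.73 (SE); since the baseline KO livers that chose the gene enter it, it is given with no p. The highest value after PHx was that of the mouse taken at 30 h (5.07 CPM) and the lowest those of the 2 mice taken at 40 h. Among KO livers at baseline, Adh6a had the same order as the summed cholangiocyte markers, which were 401, 225, 163, 137 and 86.5 CPM in mice 7, 8, 10, 11 and 12. Summed cycling genes were also highest in mice 7 and 8 and lowest in mouse 12, while mouse 10 lay below mouse 11 (27.6 and 42.1 CPM). After PHx neither order was that of Adh6a: mouse 12, with the highest Adh6a, had the lowest summed cholangiocyte markers (141 CPM, against 213 to 644 CPM in the other 4) and 11.2 CPM of cycling genes, and mouse 10, with 0.76 CPM of Adh6a, had 624 CPM of cycling genes. The part of these markers in the level of Adh6a was not tested. Per kb of exon, Adh6a reached 13.9 ± 9.58 CPM in KO at baseline, the ninth of the 10 members and below Aldh3a2 (41.1 ± 10.9).

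The 3 genes nearest to Adh6a in pattern over 20 libraries (root mean square distance between profiles of log2 of CPM plus 1, scaled to mean 0 and SD 1) were Foxl2os (0.33), Gm10419 (0.34) and Tmem229a (0.34). Gm10419 was 31.1 ± 11.9 CPM in KO at baseline and 1.22 ± 1.14 CPM after PHx, against 0.00917 and 0.0346 CPM in WT. Among the members, the closest to Adh6a was Aldh1b1 (0.87), and the closest pairs of all were Adh1 with Adh4 (0.44) and Adh5 with Aldh2 (0.46). These distances are descriptions across libraries that share their groups.

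The genes next to Adh6a were then looked at. Adh6b, the gene that follows it at 28.5 kb and whose coding sequence is 71.1% identical, had 5 and 16 counts in the WT groups and 6 and 89 in the KO groups (baseline and after PHx), and was too low to test. Of the 19 protein-coding genes within 500 kb of the cluster, Dapp1, which encodes a signalling adaptor of lymphocytes, was called higher in KO at baseline (log2 2.25, adjusted p = 0.0434, edgeR) and after PHx (3.97, adjusted p = 6.6e-04), and Tspan5, a tetraspanin gene, only passed after PHx (1.66, adjusted p = 0.00996). The other 12 of the 14 tested genes were not called higher in KO in either comparison, where 11.1% of all genes were at baseline and 16% after PHx. Adh6a was not tested, and 4 genes, Adh6b among them, were too low. A transcribed pseudogene between Adh6b and Adh4, Adh6-ps1, which was singled out after its values were seen, went the other way: it was 96.5 ± 24.8 CPM in WT and 14.97 ± 4.58 CPM in KO at baseline (log2 -2.69 ± 0.69, adjusted p = 0.0114, edgeR), and 13.6 ± 10.05 and 1.61 ± 2.36 CPM after PHx (log2 -3.09 ± 0.72, adjusted p = 0.00413).

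**Figure D3:**
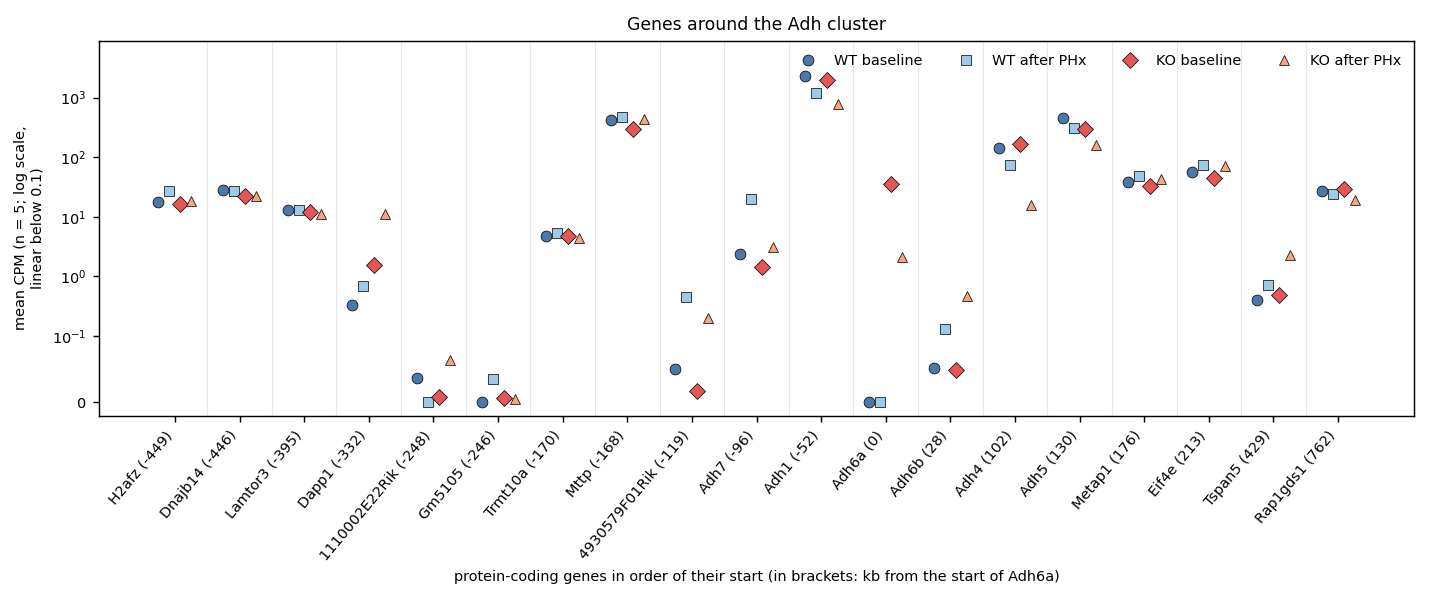
Mean CPM (n = 5; log axis, linear below 0.1) of the protein-coding genes around the Adh cluster in the 4 groups, in the order of their starts along the chromosome, with the distance from the start of Adh6a in kb in brackets. Adh6a is at 0 in both WT groups and at 35.3 CPM in KO at baseline, while Adh6b, 28.5 kb away, stays below 0.48 CPM in every group.

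After PHx, 4 members were lower in KO than in WT: Adh4, Adh5, Adh7 and Aldh1a1. Summed stellate cell markers were higher in every KO than in every WT liver there (above), and the part of cell makeup was not tested. None of the 9 members counted was higher, and the medians were -0.68 (log2) for the members and -0.01 for all genes. Of all genes tested, 24.2% passed in this comparison (16% higher and 8.2% lower). Each of these 9 overlapped between the groups, where 10% of all genes did not overlap. All 4 calls were lost when only the 10 livers after PHx were fitted (adjusted p 0.0578 to 0.0841; 9.69% of all genes tested passed there), with nearly the same log2 fold changes as those given below.

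Adh4 measured 169, 19.1, 58.3, 10.3 and 109 CPM in WT mice 1 to 5 and 8.87, 5.21, 27.2, 15.4 and 22.6 CPM in KO mice 7, 8, 10, 11 and 12. WT mice 2 and 4 lay within the KO range and the other 3 above it. The log2 fold change was -2.21 ± 0.55 (SE; adjusted p = 0.00637, edgeR, n = 5). It was -2.81 (adjusted p = 2.4e-04, edgeR) without those 2 livers, which had the lowest Adh4 of WT, and with no KO liver left out.

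Aldh1a1 measured 1101, 312, 726, 401 and 819 CPM in WT and 93.3, 164, 336, 278 and 398 CPM in KO, and only WT mouse 2 lay within the KO range. The log2 fold change was -1.40 ± 0.35 (SE; adjusted p = 0.00628, edgeR), and -1.79 (adjusted p = 0.00186) without WT mice 2 and 4. Aldh1a7 was 287 ± 157 and 179 ± 77.0 CPM and did not pass with all livers (log2 -0.68 ± 0.36, adjusted p = 0.175), but did without WT mouse 2 (-0.91, adjusted p = 0.0438) and without WT mice 2 and 4 (-1.15, adjusted p = 0.0112).

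Adh5 measured 328, 378, 311, 221 and 304 CPM in WT and 144, 105, 193, 98.1 and 252 CPM in KO. A single KO liver, the one taken at 30 h, lay above the lowest WT liver. Its log2 fold change was -0.96 ± 0.22 (SE; adjusted p = 0.00396, edgeR), and it was the member called at both 40 h (-1.24, adjusted p = 0.0138) and 48 h (-1.08, adjusted p = 0.0152).

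Adh7 measured 2.79, 54.4, 6.16, 33.6 and 3.23 CPM in WT and 3.54, 3.93, 2.98, 1.92 and 3.27 CPM in KO. The WT mean rested on mice 2 and 4. The log2 fold change of -2.68 ± 0.62 (SE; adjusted p = 0.00388, edgeR) became -0.41 (adjusted p = 0.385) without them. An antisense gene, 0610031O16Rik, shares 108 exon bases with Adh7 and had 7175 counts in all against 3458 for Adh7. The strand setting of the counting is not stated, so reads in the shared bases cannot be assigned. The antisense gene was lower in KO than in WT after PHx (3.13 ± 2.39 and 9.88 ± 2.24 CPM; log2 -1.68 ± 0.35, adjusted p = 0.00194, edgeR), as Adh7 was. At baseline the antisense gene was also lower in KO (14.8 ± 2.30 against 36.9 ± 5.35 CPM in WT; log2 -1.32 ± 0.34, adjusted p = 0.0127, edgeR). Adh7 was lower in every KO than in every WT liver there, without a call. In WT the antisense gene was lower after PHx than at baseline, where Adh7 was higher.

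Beside Aldh1a7, the members that did not pass after PHx were Adh1 (1192 ± 994 CPM in WT and 775 ± 660 CPM in KO), Aldh2 (1367 ± 276 and 1002 ± 462 CPM), Aldh3a2 (195 ± 135 and 166 ± 81.7 CPM) and Aldh1b1 (42.3 ± 32.7 and 74.2 ± 55.9 CPM). The log2 fold change of Aldh1b1 was 0.81 ± 0.56 (adjusted p = 0.308, edgeR), against the 1.96 that was called at baseline; this difference was not called either (below). Without WT mice 2 and 4 it was 0.19 (adjusted p = 0.77) for Aldh1b1, and that of Adh1 was -1.24 (adjusted p = 0.0871), against -0.62 with all livers. Aldh2 passed without the KO liver taken at 30 h (log2 -0.73, adjusted p = 0.0267), against -0.45 with all livers. With 2 livers per genotype at each time, 2 of 9 members were lower at 40 h (Adh5 and Adh7; 13.3% of all genes passed, 4.68% lower) and 4 of 9 at 48 h (Adh1, Adh4, Adh5 and Aldh1a1; 24.3% of all genes, 10.7% lower). Aldh1a1 at 48 h had a log2 fold change of -2.25 ± 0.42 (adjusted p = 0.00181) and Adh4 of -3.08 ± 0.73 (adjusted p = 0.00751). These times include the WT livers that stood apart. At 40 h Adh7 was 54.4 CPM in WT mouse 2 and 6.16 CPM in WT mouse 3, against 2.98 and 1.92 CPM in KO. At 48 h Adh1 was 132 CPM in WT mouse 4 and 1802 CPM in WT mouse 5, against 201 and 166 CPM in KO, so that WT mouse 4 lay below both KO livers, and Adh4 was 10.3 and 109 CPM against 8.87 and 5.21 CPM. Without mice 2 and 4, 1 WT liver is left at each time, and no test by time was made.

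**Figure D4:**
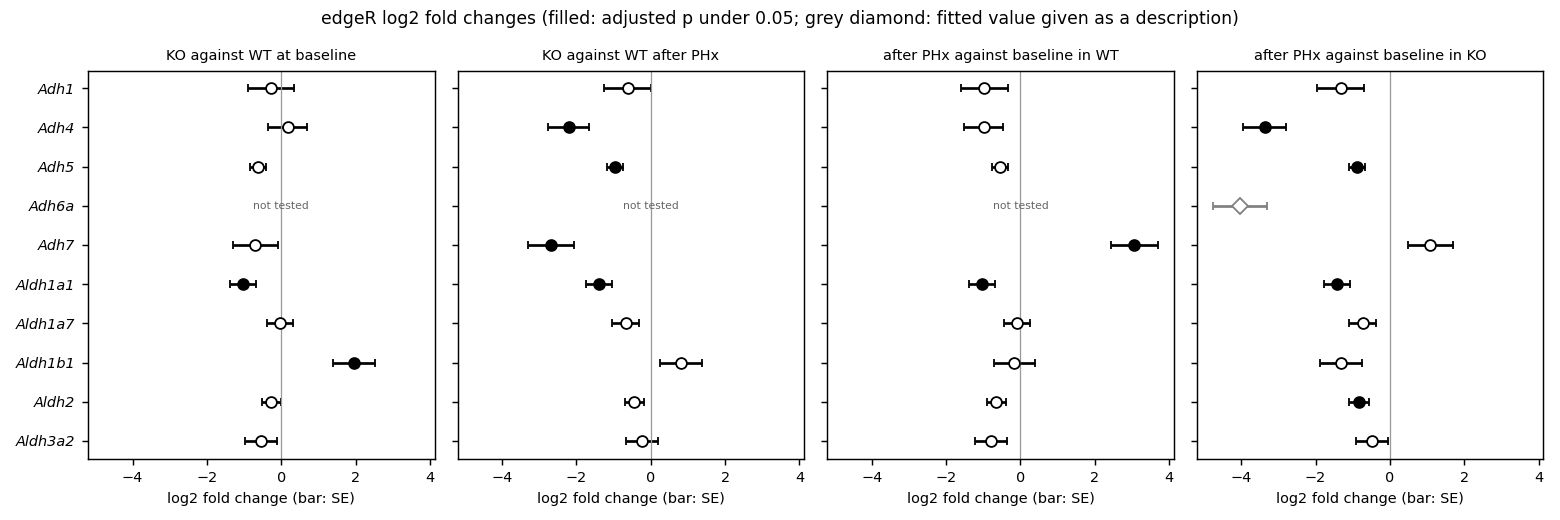
Log2 fold changes (points) with their SE (bars) from edgeR for each member in the 4 comparisons of 5 against 5 libraries, filled where the adjusted p is under 0.05. Adh6a is not tested between genotypes, its value within KO is a description, and the filled points of the second panel (Adh4, Adh5, Adh7 and Aldh1a1) all lie below 0.

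Livers after PHx were then compared with baseline within each genotype. In WT, 1 of 9 rose (Adh7) and 1 fell (Aldh1a1), where 20.1% of all genes passed (11.4% higher and 8.68% lower), and the medians were -0.65 for the members and 0.04 for all genes. In KO, where Adh6a was not counted because the baseline KO livers chose it, 4 of 9 fell (Adh4, Adh5, Aldh1a1 and Aldh2) and none rose, where 29.5% of all genes passed (17.5% higher and 12.1% lower), and the medians were -0.88 and 0.10. Without WT mice 2 and 4, which share the estimate of the spread, 8 of 9 passed in KO, 1 higher and 7 lower, where 32.7% of all genes passed. The responses in WT and KO share no libraries. Summed markers of 2 other cell types were also lower after PHx in both genotypes: endothelial markers went from 324 to 360 CPM at baseline to 104 to 271 CPM after PHx in WT and from 301 to 384 to 124 to 263 CPM in KO, and lymphocyte markers from 1.90 to 4.85 to 0.087 to 1.13 CPM in WT and from 2.96 to 6.04 to 0.13 to 1.67 CPM in KO, each without overlap. Hepatocyte markers were lower without overlap in WT (138565 to 158618 CPM at baseline, 83369 to 128054 CPM after PHx) and overlapped in KO. Cholangiocyte, stellate cell and macrophage markers overlapped with baseline in both genotypes, and cholangiocyte medians were higher after PHx (56.6 and 97.9 CPM in WT, 163 and 370 CPM in KO). Their part in the members' levels was not tested.

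Both WT calls were lost without the 2 livers that stood apart. Adh7 rose from 2.38 ± 0.94 to 20.0 ± 23.1 CPM (SD, n = 5; log2 3.07 ± 0.64, adjusted p = 0.00275, edgeR) and had a log2 difference of 0.83 (adjusted p = 0.133) without mice 2 and 4. Aldh1a1 fell from 1381 ± 120 to 672 ± 321 CPM (log2 -1.04 ± 0.35, adjusted p = 0.0396) and had -0.59 (adjusted p = 0.362) without them. The Aldh1a1 call was also lost when any 1 of the 5 baseline WT livers was left out, or WT mouse 2, 3, 4 or 5 after PHx, or KO mouse 7 at baseline or KO mouse 8 or 11 after PHx (adjusted p 0.0509 to 0.142), with library size alone (log2 -0.66, adjusted p = 0.137) and without the filter (log2 -0.98, adjusted p = 0.0859).

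Adh5, Aldh1a1 and Aldh2 were lower after PHx than at baseline in every WT liver, with no overlap, where 17.8% of all genes did not overlap (10.9% lower). Adh5 was 450 ± 53.2 CPM at baseline and 308 ± 56.7 CPM after PHx (log2 -0.55 ± 0.22, adjusted p = 0.0868, edgeR), and Aldh2 was 2140 ± 162 and 1367 ± 276 CPM (log2 -0.65 ± 0.26, adjusted p = 0.0828). Both were called lower when the 10 WT livers were fitted alone (adjusted p = 0.0409 for Adh5 and 0.0223 for Aldh2, edgeR), a fit in which 4 of 9 members and 24.1% of all genes passed. Both were also called without the KO liver taken at 30 h (adjusted p = 0.0436 and 0.0389). For Adh1 the 5 WT livers after PHx ran from 132 to 2426 CPM, an 18.4-fold spread within the group, against 2118 to 2589 CPM at baseline.

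In KO, Adh4 showed the widest change among the members that were not chosen on these livers. It measured 137, 180, 178, 185 and 141 CPM at baseline and 8.87, 5.21, 27.2, 15.4 and 22.6 CPM after PHx in the same 5 mice. No liver overlapped, and the level after PHx was 2.89% to 16% of the same mouse's baseline. The log2 fold change was -3.38 ± 0.58 (SE; adjusted p = 9.1e-04, edgeR, n = 5), a mean 10.4 times lower.

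Aldh1a1 fell in KO from 679 ± 148 to 254 ± 124 CPM (log2 -1.42 ± 0.35, adjusted p = 0.00666, edgeR), also with no overlap. Adh5 fell from 292 ± 34.4 to 158 ± 64.6 CPM (log2 -0.88 ± 0.22, adjusted p = 0.00774), and Aldh2 from 1781 ± 416 to 1002 ± 462 CPM (log2 -0.83 ± 0.26, adjusted p = 0.0227). The Aldh2 call was lost without KO mouse 12 at baseline or KO mouse 7, 8 or 11 after PHx (adjusted p 0.0541 to 0.0751), and with the 10 KO livers fitted alone neither Aldh2 (adjusted p = 0.113) nor Adh5 (adjusted p = 0.0521) was called. Adh7 was higher after PHx in 5 of 5 KO mice, from 1.46 ± 0.13 to 3.13 ± 0.76 CPM without overlap, and did not pass in the fit of all livers (log2 1.09 ± 0.61, adjusted p = 0.176). It was called higher with the 10 KO livers alone (log2 1.10, adjusted p = 0.0243), where 3 of 9 members and 20.6% of all genes passed, and without WT mice 2 and 4 (log2 1.06, adjusted p = 0.0137). Adh1 (log2 -1.32 ± 0.64, adjusted p = 0.118) and Aldh1b1 (log2 -1.31 ± 0.56, adjusted p = 0.0824) were lower in 5 of 5 KO mice and did not pass. Both passed without KO mouse 10 after PHx (adjusted p 0.0305 and 0.0179), the KO liver with the highest summed cycling genes, and without WT mice 2 and 4 (adjusted p 0.0426 and 0.0166). Aldh1b1 also passed without WT mouse 4 alone (adjusted p = 0.0435), and Aldh1a7 without both WT livers (log2 -0.74, adjusted p = 0.0428). In all, 3 of 9 members did not overlap in KO, 1 higher (Adh7) and 2 lower (Adh4 and Aldh1a1), where 13.9% of all genes tested did not (6.19% higher and 7.73% lower).

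Mice numbered in both titles can be paired: all 5 KO mice and WT mice 2 to 5. With the mouse as a block in the fit of these 9 pairs, Adh4 fell in WT (log2 -2.15, adjusted p = 0.0393, edgeR) and Aldh1b1 in KO (log2 -1.65, adjusted p = 0.0436). Neither was called in the same 18 libraries without the block (log2 -1.59, adjusted p = 0.0594, and log2 -1.32, adjusted p = 0.0931). The WT value of Adh4 also turned on WT mouse 1, which the block leaves out and which had the highest Adh4 after PHx: it was -0.99 (adjusted p = 0.197) with all 20 libraries and -1.56 (adjusted p = 0.0407) without that liver and with no block. In the same pairs, 6 members were lower after PHx in 4 of 4 WT mice (Adh1, Adh4, Adh5, Aldh1a1, Aldh2 and Aldh3a2). The share of all genes lower in every pair is not given here. WT mouse 1, outside these pairs, had 2426 CPM of Adh1, 169 CPM of Adh4 and 381 CPM of Aldh3a2 after PHx. These values lay within or above the WT baseline ranges. Aldh1a7 and Aldh1b1 were lower in 2 of 4 WT mice, mice 2 and 4, and in 5 of 5 KO mice.

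**Figure D5:**
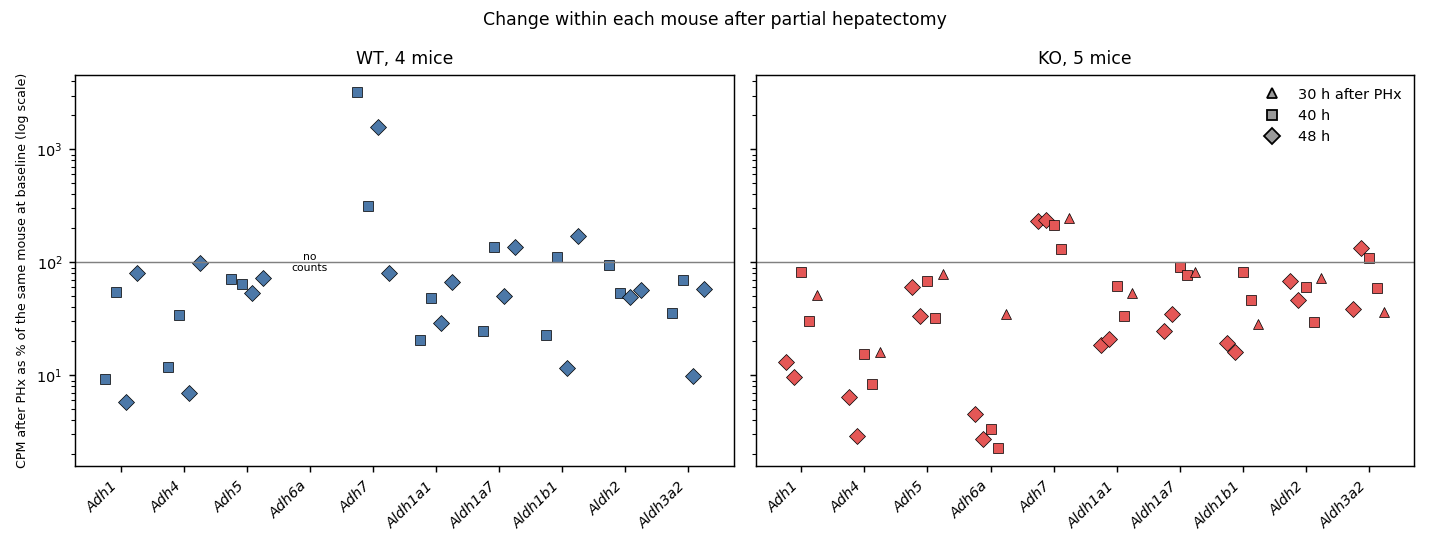
CPM of each member after PHx as a percent of the same mouse's baseline (log axis), for the 4 WT and 5 KO mice numbered in both titles, with the time after PHx shown by the marker and 100% as a line. Adh4 lies at 2.89% to 16% in the KO mice and at 6.96% to 97.8% in the WT mice, and Adh6a at 2.25% to 34.9% in the KO mice.

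The responses of the 2 genotypes were compared by the difference of the log2 changes. None of the 9 members passed (edgeR; 0 by DESeq2), where 0.389% of all genes tested did. At an unadjusted p under 0.05 there were 2 of 9, where 13.3% of all genes were. The 2 members were Adh4, with a difference of -2.39 ± 0.75 (adjusted p = 0.176), and Adh7, with -1.98 ± 0.85 (adjusted p = 0.322). Without WT mice 2 and 4 the difference for Adh4 was called (-3.05, adjusted p = 0.0231) and that for Adh7 was 0.23 (adjusted p = 0.817). These 2 livers had the lowest Adh4 of WT after PHx, while the KO livers lowest in Adh4 (mice 7 and 8) were kept. Such a choice by itself widens the Adh4 difference. With the mouse as a block, the Adh4 difference was -1.44 (adjusted p = 0.598, edgeR). In the same 18 libraries without the block it was -1.79 (adjusted p = 0.351). For Aldh1b1, called at baseline and not after PHx, the difference was -1.15 ± 0.79 (adjusted p = 0.555).

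For the 4 gene lists that follow, the shares of all genes that passed are those given for the members: 16% in KO against WT at baseline and 24.2% after PHx, and 20.1% in WT and 29.5% in KO for the response. Of the 18 other genes with an Adh or Aldh symbol, 13 were tested. At baseline 3 were higher in KO and none lower: Aldh1a2, which encodes a retinaldehyde dehydrogenase, rose from 0.092 ± 0.098 to 8.72 ± 3.50 CPM (log2 6.50 ± 0.79, adjusted p = 1.4e-05, edgeR), Aldh18a1, which encodes the enzyme of proline synthesis, rose by 2.39 ± 0.55 (log2, adjusted p = 0.00545), and Aldh3b1 rose as well. After PHx 4 were higher and 1 lower, again led by Aldh1a2 (log2 4.49 ± 0.68, adjusted p = 9.6e-05). Stellate cell markers, a cell type known to express Aldh1a2, were also higher in KO at baseline (5 of 10 called, none lower), and their part in the level of Aldh1a2 was not tested.

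After PHx against baseline, 0 of the 13 rose and 5 fell in WT, and 1 rose and 7 fell in KO. Aldh1l1, which encodes the folate enzyme 10-formyltetrahydrofolate dehydrogenase, fell in both (log2 -1.55 ± 0.39 in WT and -1.47 ± 0.39 in KO, adjusted p = 0.00984 and 0.0104, edgeR). Aldh6a1, of valine breakdown, fell by 1.53 ± 0.31 on the log2 scale in WT (adjusted p = 0.00244) and by 1.31 ± 0.31 in KO (adjusted p = 0.00523). Aldh1a3, another retinaldehyde dehydrogenase gene, rose in KO (log2 2.69 ± 0.90, adjusted p = 0.0310). Its level was low, at 0.79 ± 0.52 CPM at baseline and 5.18 ± 4.76 CPM after PHx. The KO mice taken at 40 h (10 and 11) lay slightly below their own baseline. The difference of the responses was called for none of the 13.

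The next 3 lists cover the pathways around the members. Of 7 genes of other ethanol and acetate oxidation, 1 was higher and 1 lower in KO at baseline, and 1 was higher and 0 lower after PHx. The response to PHx was 0 higher and 3 lower in WT and 0 higher and 2 lower in KO. Cyp2e1, the cytochrome P450 that oxidises ethanol, which is also among the 10 hepatocyte markers, was 2962 ± 774 CPM in KO and 7115 ± 1025 CPM in WT at baseline (log2 -1.26 ± 0.39, adjusted p = 0.0306, edgeR). After PHx, Acss2, which activates acetate in the cytosol, fell in both WT (log2 -2.93 ± 0.61, adjusted p = 0.00286) and KO (log2 -3.16 ± 0.62, adjusted p = 0.00191), and so did Cat, which encodes catalase (log2 -1.84 ± 0.32 in WT, adjusted p = 6.95e-04, and -1.76 ± 0.31 in KO, adjusted p = 0.00122).

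Of 29 tested genes of retinoid metabolism and signalling, 5 were higher and 0 lower in KO at baseline, close to the share of all genes, and 3 were higher and 3 lower after PHx, no more than that share. Aox1, which encodes an aldehyde oxidase, was lower in KO after PHx (log2 -1.97 ± 0.35, adjusted p = 4.5e-04, edgeR). The response to PHx was 4 higher and 6 lower in WT and 2 higher and 9 lower in KO. Dhrs3, which reduces retinaldehyde back to retinol, fell in WT (log2 -2.29 ± 0.55, adjusted p = 0.00698) and in KO (log2 -1.78 ± 0.54, adjusted p = 0.0190). Rdh9, a retinol dehydrogenase gene, was the 1 gene on the list whose responses differed (log2 difference -2.16 ± 0.37, adjusted p = 0.0148).

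Of 22 genes of aldehyde and ketone reductases and glutathione-dependent aldehyde clearance, 3 were higher and 2 lower in KO at baseline, and 2 were higher and 5 lower after PHx. Glo1, glyoxalase 1, fell from 536 ± 50.2 to 268 ± 42.5 CPM in KO at baseline (log2 -0.999 ± 0.273, adjusted p = 0.0165, edgeR). Cbr3, a carbonyl reductase gene, was higher in KO at baseline (log2 2.41 ± 0.46, adjusted p = 0.00122) and after PHx (log2 2.81 ± 0.44, adjusted p = 1.3e-04). After PHx 2 rose and 6 fell in WT and 2 rose and 9 fell in KO, and Glo1 fell in both (log2 -1.83 ± 0.28 and -1.66 ± 0.28).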

How the data were processed

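Per the labels, poly(A) RNA from liver was sequenced in 20 samples. The unit of the values deposited by the authors is the raw count per Ensembl gene, 1 file per library, without normalisation. The design text of the series names FastQC 0.11.5 and fastp 0.20.0 for trimming, with uniquely mapped reads used. Per the submitters' processing notes, Trimmomatic 0.36 and the mm10 genome were used. The aligner, counter and strand setting are not given in the sources used here.

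Symbols and exons came from GENCODE M21. Counts were tested with edgeR 4.0.16 (quasi-likelihood, two-sided) in R 4.3.3 with TMM and filterByExpr (minimum count 10), in 1 fit of 4 group means over 20 samples, with Benjamini-Hochberg adjustment over 14661 genes and a threshold of 0.05. The SE is the absolute log2 fold change divided by the square root of F. A second fit had a mean per genotype and time. The method was tested on simulated data. Alternatives were DESeq2 1.42.0, library size alone, no filter, only the samples compared, each replicate left out, a time term, a mouse block, and, added after seeing the data, 2 WT livers left out and the block's 18 libraries without it. Adh6a was not counted among the members in KO against WT, nor, decided after the data were seen, in the response in KO.

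The mice pair the samples, since the labels give the same mouse number at both stages. WT mouse 1 has no number in its baseline title and was left out of the block. Residuals of same-numbered samples correlated at -0.05 to 0.15 (9 pairs) and those of other numbers at -0.23 to 0.26 (41 pairs). Replicates are separate mice. Counting floors of 3 counts cover counting error only.

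The members, gene lists and tests were chosen with earlier results of these data known. Named were all members, at most 2 called genes with the highest and 2 with the lowest fold change per list and comparison, the 3 nearest profiles to Adh6a and the genes within 500 kb of the cluster. Other names were chosen after their values were seen.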

Additional observations from a re-analysis of the deposited data

Results flagged for a closer look

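Adh7 in the WT livers at baseline measured 2.08, 1.70, 1.96, 2.11 and 4.04 CPM in mice 1 to 5. The 4.04 CPM of mouse 5 stood far from the others, with a gap to the nearest of 0.825 of the group's range, against a limit of 0.71 for 5 samples. It was the only one of 38 groups of member values looked at, where chance gives about 1 in 20. None of the differences between the genotypes in the members' responses to PHx passed the test with all 20 libraries, and that of Adh4 passed without WT mice 2 and 4 (log2 -3.05, adjusted p = 0.0231, edgeR). Those 2 livers had the lowest Adh4 of WT after PHx, and no KO liver was left out with them. With the mouse block the Adh4 difference was -1.44 (adjusted p = 0.598, edgeR).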

How the results depend on the processing

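Genes called at baseline were 2348 of 14661 (1631 higher), and 3634 of 14661 (3521 higher) with library size alone and 5242 of 13286 with only the samples compared. Without the filter 1958 of 25585 were called, and with 1 library left out 1644 to 2794. Members called at baseline were 2, and 1 with library size alone, 1 without the filter, 4 with only the samples compared, and 0 to 3 with 1 library left out. After PHx, with only the samples compared, 1345 genes and 0 members were called, against 3544 and 4. With library size alone, calls in the higher direction made up 92.9% of calls after PHx against 66.1% with TMM, and moved from 56.8% to 86.7% in the WT response, from 59.1% to 80.9% in the KO response and from 42.1% to 15.8% in the difference. For the response in WT, members called were 2, and 1 with library size alone or without the filter, 4 with only the samples compared, and 1 to 4 with 1 library left out. Of all genes, 2950 of 14661 were called there, 4378 of 14661 with library size alone and 2460 of 25585 without the filter. With only the samples compared it was 3079 of 12775, and with 1 library left out 2191 to 3381. Without the 2 WT livers 1564 genes and 0 members were called in WT, 8 members in KO against 4, and 1 member in the difference against 0. Of all 15323 genes tested in that fit, 5012 were called in KO and 72 in the difference. For the response in KO, with only the samples compared, 2878 genes were called against 4331. For the difference, 57 genes were called, 376 by DESeq2, 7 with the replicate block, 34 in the same 18 libraries without it, and 22 to 708 with 1 library left out, the 708 without KO mouse 10 after PHx. Among the members, the block changed no call other than the 2 in the report. With the longest transcript in place of merged exons, 6 of 10 members kept their place in the level order of WT at baseline; Aldh1a1 and Aldh2, and Adh4 and Adh5, changed places.

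Some signs turned. With library size alone, log2 values became 0.20 for Adh1, 0.45 for Aldh1a7 and 0.20 for Aldh2 in KO against WT at baseline, 0.17 for Aldh3a2 after PHx, and 0.29 for Aldh1a7 and 0.24 for Aldh1b1 in the WT response. Aldh1a7 at baseline was 0.0324 without the filter, 0.0283 without the 2 WT livers and -0.1064 to 0.0583 with 1 library left out. With 1 library left out, Aldh3a2 after PHx ran from -0.51 to 0.16, and in the WT response Aldh1a7 ran from -0.28 to 0.13 and Aldh1b1 from -0.44 to 0.18. Without both WT livers the latter 2 were 0.44 and 0.52. The difference of responses ran from -0.90 to 0.0787 for Adh1 and from -0.0373 to 0.70 for Aldh3a2 with 1 library left out. It was 0.32 for Adh1 with the replicate block and 0.11 in the same libraries without it, and -0.28 for Aldh3a2 and 0.23 for Adh7, against -1.98 with all, without both WT livers. The cause was not tested. Adh6b had too few counts to be tested, and Adh6a after PHx rests on 312 counts.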
